A study of Mus musculus with 18 samples.

Results

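The 10 genes described here encode transcription factors that carry the signal of the circadian clock to other genes and back to the clock itself. They are the REV-ERB genes Nr1d1 and Nr1d2, the ROR genes Rora and Rorb, the PAR bZIP genes Dbp, Tef and Hlf, their antagonist Nfil3, and the DEC genes Bhlhe40 and Bhlhe41. They were chosen by name from the deposited count table, in which all 10 were found among 55487 genes. Their levels were compared in 4 groups of libraries made from flow-sorted cells of the mouse retina. The first group was CD11b-positive, DAPI-negative cells, called microglia here, of mice labelled Bmal1-mg/-mg, which lack the clock gene Bmal1 in microglia and are called knockouts (n = 5). The second was microglia of mice labelled Bmal1f/f, which carry floxed Bmal1 and are called controls (n = 4). The remaining groups were the CD11b-negative, DAPI-negative cells of knockouts (n = 5) and of controls (n = 4), named retina in what follows. Myeloid cells, microglia among them, carry CD11b on their surface, and DAPI stains dead cells. The labels name neither the recombinase driver nor the age, the sex or the hour at which tissue was taken, and they do not say which libraries come from the same mouse. A p-value here reflects how far libraries of a group spread, which may be technical.

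In the mammalian clock, BMAL1 and CLOCK bind E-boxes and activate, among others, the REV-ERB, PAR bZIP and DEC genes. REV-ERB proteins repress and ROR proteins activate genes with a shared response element, the RORE, and Bmal1 itself is one of these genes. DBP, TEF and HLF activate genes with a D-box, NFIL3 represses the same genes, and DEC proteins repress from E-boxes. In the retina, RORB is also needed for the development of photoreceptors and some interneurons, and in microglia BHLHE40 and BHLHE41 belong to the transcription factors of the myeloid lineage.

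The E-box is the sequence through which BMAL1 acts, so promoters are shown for the REV-ERB genes, for 2 PAR bZIP genes and for the DEC gene that was higher in microglia than in retina. RefSeq promoter windows on GRCm38.p6, from 250 bases before to 50 bases after a transcription start, matched 9 of the 10 genes and gave 11 windows. On either strand they were searched for the E-box CACGTG, the E-prime-box CACGTT, which reads AACGTG on the opposite strand, the D-box in its forms TTATGTAA and TTACGTAA, and the RORE, an AGGTCA half-site behind an A- and T-rich flank. None of these motifs contains another. Among 32851 RefSeq windows, 7.15% held the E-box, 4.68% the E-prime-box, 1.06% the D-box and 0.219% the RORE. In the lines below, which read 5′ to 3′ on the strand of the gene, capitals mark the matched E-box or E-prime-box. The windows are chr11:98775328-98775627 (minus strand) for Nr1d1, chr14:18239057-18239356 (minus) for Nr1d2, chr7:45704997-45705296 (plus) for Dbp, chr15:81802423-81802722 and chr15:81811164-81811463 (both plus) for the first and the second start of Tef, and chr6:145865371-145865670 (minus) for Bhlhe41.
Nr1d1: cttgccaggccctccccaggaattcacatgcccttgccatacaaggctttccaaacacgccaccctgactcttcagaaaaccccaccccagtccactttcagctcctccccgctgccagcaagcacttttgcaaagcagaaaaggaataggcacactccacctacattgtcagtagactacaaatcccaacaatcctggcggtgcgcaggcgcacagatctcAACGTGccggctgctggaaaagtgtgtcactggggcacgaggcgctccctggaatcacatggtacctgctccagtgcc
Nr1d2: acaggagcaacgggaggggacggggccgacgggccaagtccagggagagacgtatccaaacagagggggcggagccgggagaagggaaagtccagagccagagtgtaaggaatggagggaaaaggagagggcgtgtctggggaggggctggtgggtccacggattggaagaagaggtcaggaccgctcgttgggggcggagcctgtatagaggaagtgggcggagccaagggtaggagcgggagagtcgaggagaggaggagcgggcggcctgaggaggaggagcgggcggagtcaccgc
Dbp: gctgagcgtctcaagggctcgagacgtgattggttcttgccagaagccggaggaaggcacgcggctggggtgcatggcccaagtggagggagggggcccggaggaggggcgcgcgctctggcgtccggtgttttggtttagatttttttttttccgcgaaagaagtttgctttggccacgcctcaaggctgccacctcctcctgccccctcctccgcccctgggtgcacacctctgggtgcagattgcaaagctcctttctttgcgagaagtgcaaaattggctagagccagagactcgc
Tef, first start: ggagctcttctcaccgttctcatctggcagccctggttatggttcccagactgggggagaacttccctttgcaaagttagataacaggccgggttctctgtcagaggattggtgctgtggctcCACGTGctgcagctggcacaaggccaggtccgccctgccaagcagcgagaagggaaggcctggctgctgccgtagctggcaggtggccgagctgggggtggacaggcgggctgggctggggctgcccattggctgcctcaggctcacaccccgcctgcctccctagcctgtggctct
Tef, second start: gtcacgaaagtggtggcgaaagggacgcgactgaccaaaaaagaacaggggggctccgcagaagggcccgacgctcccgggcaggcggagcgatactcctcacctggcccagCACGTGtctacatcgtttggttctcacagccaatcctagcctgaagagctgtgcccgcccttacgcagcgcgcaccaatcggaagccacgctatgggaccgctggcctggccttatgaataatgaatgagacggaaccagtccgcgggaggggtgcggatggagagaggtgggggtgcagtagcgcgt
Bhlhe41: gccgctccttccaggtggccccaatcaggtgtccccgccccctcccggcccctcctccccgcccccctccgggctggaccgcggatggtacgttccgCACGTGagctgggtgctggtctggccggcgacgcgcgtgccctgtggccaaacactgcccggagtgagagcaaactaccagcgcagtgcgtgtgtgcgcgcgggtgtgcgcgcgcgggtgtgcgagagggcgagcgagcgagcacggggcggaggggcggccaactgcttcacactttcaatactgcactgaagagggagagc
The Nr1d1 window held an E-prime-box 28 bases before the start, and the windows of Tef held an E-box 127 and 138 bases before their starts. The Bhlhe41 window held an E-box 153 bases before the start. Of the windows not printed, 1 of the 2 of Rorb held an E-prime-box 234 bases before its start, and those of Rora, Hlf and Nfil3 held none of the motifs. No D-box or RORE of the forms searched was found in the 11 windows. Distances count from the RefSeq start. Bases shortly after it were in 0 of 2 GENCODE M21 transcripts of Nr1d1 and 0 of 6 of Hlf. For every other window at least 1 transcript held them. A motif match describes the letters of a window and says nothing about binding, and no match says only that these letters are not in the window.

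The libraries had between 32277156 and 47563119 counts, so that 3 counts corresponded to 0.0631 to 0.0929 CPM, counts scaled to a common library total. Levels are given in CPM scaled over all 18 libraries with the trimmed mean of M values (TMM), and changes as log2 fold changes with their standard error. The libraries were amplified from little RNA without molecular identifiers named in the labels, and counting error is only a part of their spread. Microglia markers made up 6.44 to 6.88% of the CPM in knockout microglia and 6.66 to 7.08% in control microglia, and at most 0.00237% in knockout retina and 0.00287% in control retina. Rod markers made up 0.492 to 1.15% of the CPM in knockout microglia and 0.716 to 1.09% in control microglia. In retina, rod markers made up 13.5 to 15.9% in knockouts and 16.9 to 20.9% in controls. The number of genes with a count was 17892 ± 488 in knockout microglia, 19029 ± 323 in control microglia, 19235 ± 341 in knockout retina and 17640 ± 1006 in control retina (SD). In bulk samples, fewer cells of a type and less RNA per cell cannot be told apart.

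Bmal1 itself, named Arntl in the count table, had 8.52, 2.10, 19.8, 24.1 and 13.6 CPM in knockout microglia, against 21.8, 15.5, 9.90 and 27.0 CPM in control microglia. The groups overlapped, and the log2 change of -0.44 ± 0.62 did not pass the test (adjusted p = 0.999, edgeR quasi-likelihood). The count of a gene sums all its exons, those outside the floxed part included, so this level does not check the deletion. In retina, Arntl averaged 92.9 ± 18.2 CPM in knockouts and 115.8 ± 17.4 CPM in controls (SD), and the change of -0.35 ± 0.17 did not pass either (adjusted p = 0.392).

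In microglia, none of the 10 genes passed the test between knockouts and controls, in a comparison that called 0.115% of 14835 genes. The 10 genes all passed the filter on low counts. Nr1d2 had 0.130 times its control level and Nfil3 3.47 times, the widest differences of the 10 in each direction. These 2 genes had an unadjusted p under 0.05, which 5.76% of all tested genes had, and neither was called by DESeq2 or limma voom, which also called 0 of the 10. The 10 genes had a median log2 change of -0.39, with 7 negative and 3 positive, and all tested genes a median of -0.01.

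Nr1d2 (chr14:18204054-18239127, minus strand) encodes REV-ERB-beta, a nuclear receptor that represses transcription in response to heme. It had 8.27, 16.7, 0, 4.61 and 10.8 CPM in knockout microglia, against 39.5, 68.7, 79.7 and 60.5 CPM in control microglia. All 5 knockout libraries lay below all 4 control libraries, and the third knockout library had no read of the gene. No read allows up to 0.0717 CPM before TMM scaling (3 counts over the library total, counting error only). Such a separation to the lower side was found for 1.41% of the genes tested. The log2 change was -2.94 ± 1.02, with a 95% interval of -5.24 to -0.65 and an adjusted p of 0.662 (edgeR quasi-likelihood). Without knockout replicate 3, the library with no read, the change was -2.62 with an adjusted p of 0.0672. In the authors' deposited table of this comparison, Nr1d2 has a log2 change of -2.96 with an adjusted p of 0.0477, and that table has 0.592% of its 12841 genes under 0.05. Knockout microglia had fewer detected genes, and with that number in the model the log2 change of Nr1d2 was -1.51. That number separates the genotypes in microglia, at 17343 to 18438 in knockouts and 18654 to 19363 in controls. What goes with it and what with genotype cannot be told apart, here and for the genes below. The part of the detected gene number in the level of Nr1d2 was not tested.

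Nr1d1 (chr11:98767932-98775333, minus strand) encodes REV-ERB-alpha, the paralogue of REV-ERB-beta. It had 48.4, 34.1, 14.1, 23.0 and 29.2 CPM in knockout microglia, against 34.0, 39.4, 56.9 and 42.2 CPM in control microglia. The groups overlapped, since the first knockout library was above 3 of the 4 controls. The log2 change was -0.54 ± 0.33 (adjusted p = 0.981, edgeR), and it was 0.11 with the number of detected genes in the model. As a ratio within a library, the log2 level of Nr1d1 over Nr1d2 was 0.99 to 3.91 in knockout microglia and -0.79 to -0.21 in control microglia, on log2(CPM + 1).

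The ROR genes were near their control levels on average in microglia, but differed widely from library to library. Rora (chr9:68653786-69388246, plus strand) had 33.8, 42.2, 14.7, 23.4 and 34.5 CPM in knockout microglia, against 23.6, 25.3, 40.9 and 49.5 CPM in control microglia. Rorb (chr19:18930605-19111196, minus strand) had 39.8, 103, 54.4, 7.89 and 39.6 CPM in knockout microglia, against 39.8, 42.5, 55.9 and 76.6 CPM in control microglia. The knockout values of Rorb spanned 13.1-fold, with replicate 2 above and replicates 4 and 5 below every control. The log2 changes were -0.23 ± 0.35 for Rora and -0.14 ± 0.56 for Rorb, with 95% intervals of -1.02 to 0.55 and -1.39 to 1.11.

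The 3 PAR bZIP genes had lower means in knockout than in control microglia, each with overlapping groups. Dbp (chr7:45705088-45710203, plus strand), whose transcript is among the most rhythmic in mouse tissues, had 13.6, 25.2, 9.19, 11.9 and 16.1 CPM in knockout microglia, against 9.58, 23.1, 24.0 and 32.5 CPM in control microglia. Its second knockout library was above 3 of the 4 controls, and the log2 change was -0.56 ± 0.41. Of the 2993 exon bases of Dbp, 539 overlap Sphk2 on the opposite strand, and Sphk2 had 84.2 to 133 CPM in knockout microglia and 69.0 to 112 CPM in control microglia. Whether counting used strand is not given in the sources used here, so reads of these 2 genes cannot be told apart there.

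Tef (chr15:81802421-81826863, plus strand) had 46.3, 2.74, 81.4, 59.0 and 69.4 CPM in knockout microglia, against 99.0, 80.1, 126 and 106 CPM in control microglia. Of the 5 knockout libraries, 4 lay below all controls, and replicate 3, at 81.4 CPM, was above 1 control. The log2 change of -0.99 ± 0.66 was -0.68 without knockout replicate 2, the library at 2.74 CPM, and -2.05 with the number of detected genes in the model. Hlf (chr11:90336536-90390895, minus strand) had the lowest level per kilobase of the 10 genes in microglia, and on CPM it had 0.525, 0.747, 6.81, 3.86 and 5.30 CPM in knockouts, against 5.52, 5.58, 8.34 and 12.6 CPM in controls. Its log2 change was -1.21 ± 0.79, and the interval from -2.99 to 0.56 spans 0. With the number of detected genes in the model it was -3.82, and that of Arntl was -1.98, neither called.

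Nfil3 (chr13:52967209-52981073, minus strand), the repressor at D-boxes and a factor needed for several lymphoid lineages, was the gene with the smallest unadjusted p of the 10 in microglia (rank 276 of 14835). It had 21.6, 37.2, 17.5, 7.08 and 9.62 CPM in knockout microglia, against 2.88, 8.14, 5.87 and 4.52 CPM in control microglia. Only the fourth knockout library fell within the control range, below the control library at 8.14 CPM. The log2 change was 1.79 ± 0.56, with a 95% interval of 0.53 to 3.05 and an adjusted p of 0.552 by edgeR and 0.0619 by DESeq2. Within libraries, the log2 level of Dbp over Nfil3 was -0.86 to 0.69 in knockout microglia and 1.40 to 2.60 in control microglia. Such ratios overlapped for Nr1d1 over Rora, at -0.30 to 0.51 in knockout and -0.22 to 0.62 in control microglia. They also overlapped for Bhlhe40 over Bhlhe41, at -3.66 to -0.68 and -3.68 to -1.62. The ratios were not tested. Genes of monocytes, border macrophages and granulocytes summed to 170 to 580 CPM in knockout microglia and 64.7 to 427 CPM in control microglia, and none of the 9 was at 0 in all libraries of either group. Their part in the level of Nfil3 was not tested.

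The DEC genes did not separate the genotypes in microglia. Bhlhe40 (chr6:108660629-108666925, plus strand) had 7.70, 52.7, 4.90, 16.9 and 12.6 CPM in knockout microglia, against 13.3, 4.08, 10.7 and 15.5 CPM in control microglia. The log2 change of 0.79 ± 0.71 was set by knockout replicate 2 and was -0.05 without it. Bhlhe41 (chr6:145858243-145865558, minus strand) had 51.0, 85.3, 73.6, 41.8 and 54.7 CPM in knockout microglia, against 42.8, 64.3, 66.9 and 54.8 CPM in control microglia. The log2 change of Bhlhe41 was 0.10 ± 0.23, and the interval from -0.43 to 0.62 bounds it more narrowly than that of any other of the 10 genes in this comparison.

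**Figure D1:**
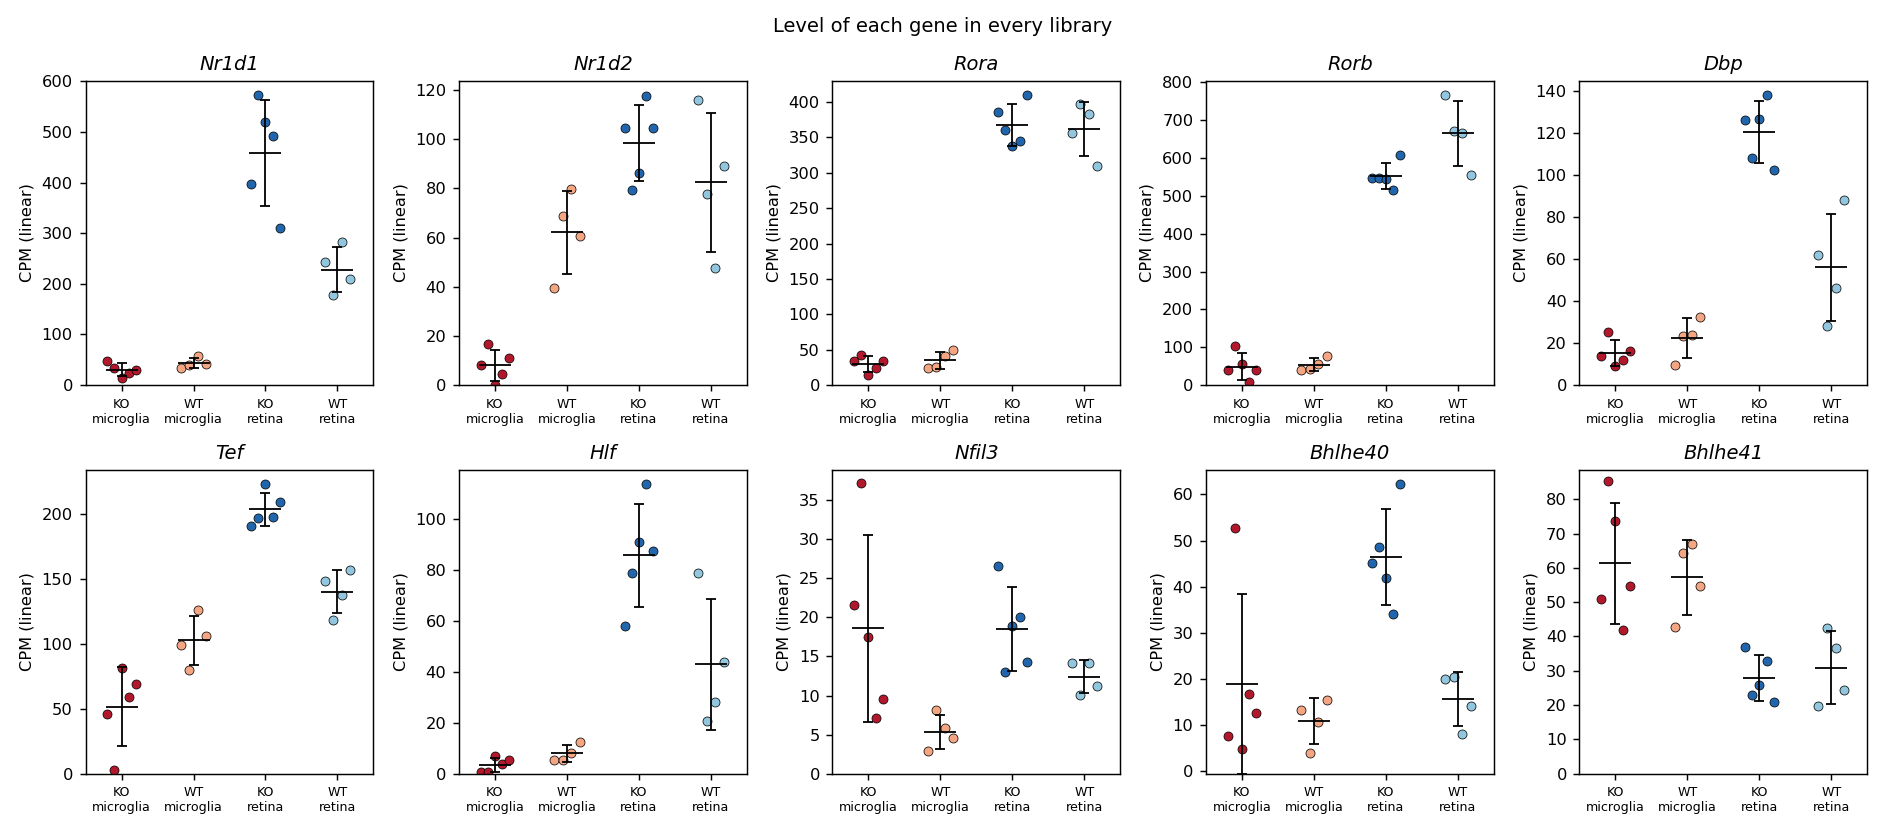
CPM of each gene (linear axis) in every library, by group: knockout (KO) microglia, control (WT) microglia, knockout retina and control retina, with the mean and SD as bars (n = 5 knockouts and 4 controls). Nr1d2 is below all control microglia in all 5 knockout microglia libraries, while Nr1d1, Dbp, Tef and Bhlhe40 are above all control retina libraries in all 5 knockout retina libraries.

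In retina, 2 of the 10 genes rose in knockouts, Nr1d1 1.95-fold and Bhlhe40 2.89-fold. A share of 1.34% of 15332 genes was called higher in this comparison, and 1.66% in either direction. Dbp, Tef and Hlf had 2.08, 1.41 and 1.93 times their control levels without passing the threshold, and Rorb had 0.808 times its control level. Of the 10 genes, 6 had an unadjusted p under 0.05, against 14.2% of all tested genes, and 4 had groups that did not overlap with knockouts higher, against 6.02%. Their median log2 change was 0.52, with 7 positive and 3 negative, and that of all tested genes was 0.00. DESeq2 called 4 of them, adding Dbp and Tef, and limma voom called 3, adding Tef.

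Nr1d1 had 398, 573, 521, 492 and 310.5 CPM in knockout retina, against 243, 178, 283 and 209 CPM in control retina. The lowest knockout library, replicate 5, stood above the highest control, replicate 3. The log2 change was 0.96 ± 0.20 (adjusted p = 0.0483, edgeR), and it is 0.96 with an adjusted p of 6.93e-05 in the authors' deposited table, which has 5.58% of its 13330 genes under 0.05. Of its exon bases, 8.55% overlap Thra, the thyroid hormone receptor gene, on the opposite strand, and Thra had 39.5 to 66.9 CPM in knockout retina and 21.5 to 37.5 CPM in control retina. Nr1d2 had 104, 79.3, 86.3, 118 and 104 CPM in knockout retina, against 116, 77.8, 47.6 and 89.1 CPM in control retina. The groups of Nr1d2 overlapped, and its log2 change was 0.21 ± 0.24.

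Bhlhe40, a repressor induced by many stimuli as well as by the clock, had 45.1, 48.7, 41.9, 34.1 and 62.2 CPM in knockout retina, against 19.9, 20.4, 8.02 and 14.1 CPM in control retina. All knockout libraries lay above all controls, and the log2 change was 1.53 ± 0.31 (adjusted p = 0.0472, edgeR). In the authors' deposited table it is 1.53 with an adjusted p of 0.00132. Bhlhe41 had 36.9, 22.9, 26.0, 33.0 and 20.9 CPM in knockout retina, against 19.7, 42.6, 36.8 and 24.5 CPM in control retina, and its log2 change was -0.18 ± 0.28. The log2 level of Bhlhe40 over Bhlhe41 was 0.05 to 1.53 in knockout retina and -2.07 to 0.02 in control retina. Nr1d1 over Rora was also apart, at -0.40 to 0.67 and -1.16 to -0.43. The ratio overlapped between genotypes for Dbp over Nfil3 (2.2 to 2.96 and 1.40 to 2.86) and for Nr1d1 over Nr1d2 (1.56 to 2.84 and 1.06 to 2.55).

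Dbp had 126, 108, 127, 138 and 102 CPM in knockout retina, against 61.8, 28.2, 45.9 and 87.9 CPM in control retina. No library overlapped, and the log2 change of 1.06 ± 0.29 had an adjusted p of 0.108 by edgeR, 0.00531 by DESeq2 and 0.00575 in the authors' deposited table. Tef had 191, 197, 223, 198 and 209 CPM in knockout retina, against 149, 118, 138 and 157 CPM in control retina. The groups of Tef also stood apart, and the log2 change of 0.50 ± 0.11 had an adjusted p of 0.0617 by edgeR, 8.35e-05 by DESeq2 and 0.0410 by limma voom. Hlf had 58.0, 78.7, 91.2, 114 and 87.3 CPM in knockout retina, against 79.0, 20.7, 28.4 and 43.9 CPM in control retina. Here the first control library lay inside the knockout range, and the log2 change was 0.95 ± 0.38 (adjusted p = 0.276, edgeR).

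Rora had 386, 361, 338, 346 and 410 CPM in knockout retina, against 357, 398, 383 and 309 CPM in control retina, and its log2 change of -0.01 ± 0.10 had a 95% interval of -0.25 to 0.22. Rorb had 548, 546, 544, 517 and 608 CPM in knockout retina, against 766, 673, 667 and 556 CPM in control retina. Of the controls, 3 lay above all knockouts and replicate 4 lay among them, and the log2 change was -0.31 ± 0.10 (adjusted p = 0.196, edgeR). Nfil3 had 26.5, 13, 18.9, 20.1 and 14.3 CPM in knockout retina, against 14.1, 10.1, 14.2 and 11.3 CPM in control retina. The groups of Nfil3 overlapped, and its log2 change was 0.54 ± 0.29 (adjusted p = 0.477, edgeR).

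Levels of cell type markers in the retina fraction differed with genotype. All 12 rod markers had negative log2 changes and 6 were called lower, 4 of 8 cone markers and 6 of 9 bipolar cell markers were called higher, and rod markers summed to less in every knockout than in any control library. Cone markers made up 0.290 to 0.711% of the CPM in knockout retina and 0.0740 to 0.197% in control retina, and bipolar cell markers 0.161 to 0.309% in knockouts and 0.0273 to 0.0847% in controls. With the rod marker level as a covariate, no gene of any kind was called. In that fit the log2 change was 0.19 for Nr1d1, -0.07 for Dbp, 0.19 for Tef, -0.42 for Hlf and 2.10 for Bhlhe40. Since the rod marker level separates the genotypes, what goes with the one and what with the other cannot be told apart in these libraries. Of the 14 microglia markers, P2ry12, Fcrls and Itgam were at 0 in all knockout retina libraries and Fcrls, Siglech and Aif1 in all control retina libraries.

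Both calls in retina lay close to the threshold. With all libraries kept they were lost without a filter on low counts (adjusted p = 0.0741 for Nr1d1 and 0.0735 for Bhlhe40) and in 1 edgeR fit over all 18 libraries (0.119 and 0.250), with log2 changes of 0.98 to 1.01 and 1.55 to 1.57. The edgeR fit with the replicate number as a block also lost both (adjusted p = 0.135 and 0.160). That fit called 0 genes of any kind in retina. The labels do not say that a number shared by a knockout and a control joins them, so the block does not weigh these 2 calls. Both were also lost with covariates for the number of detected genes (log2 changes of 0.80 and 1.64) and for the rod marker level (0.19 and 2.10). Each of these covariates separates the genotypes in retina. Among fits with 1 library left out, Nr1d1 passed only without knockout replicate 5, and without each of the other 8 libraries its adjusted p was between 0.0589 and 0.121 with log2 changes of 0.87 to 1.09. Bhlhe40 passed in none of the 9 such fits, with adjusted p-values of 0.0565 to 0.103 and log2 changes of 1.32 to 1.70. Without control replicate 4, Dbp (log2 change 1.38, adjusted p = 0.0336) and Tef (0.57, adjusted p = 0.0487) passed instead, by edgeR.

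**Figure D2:**
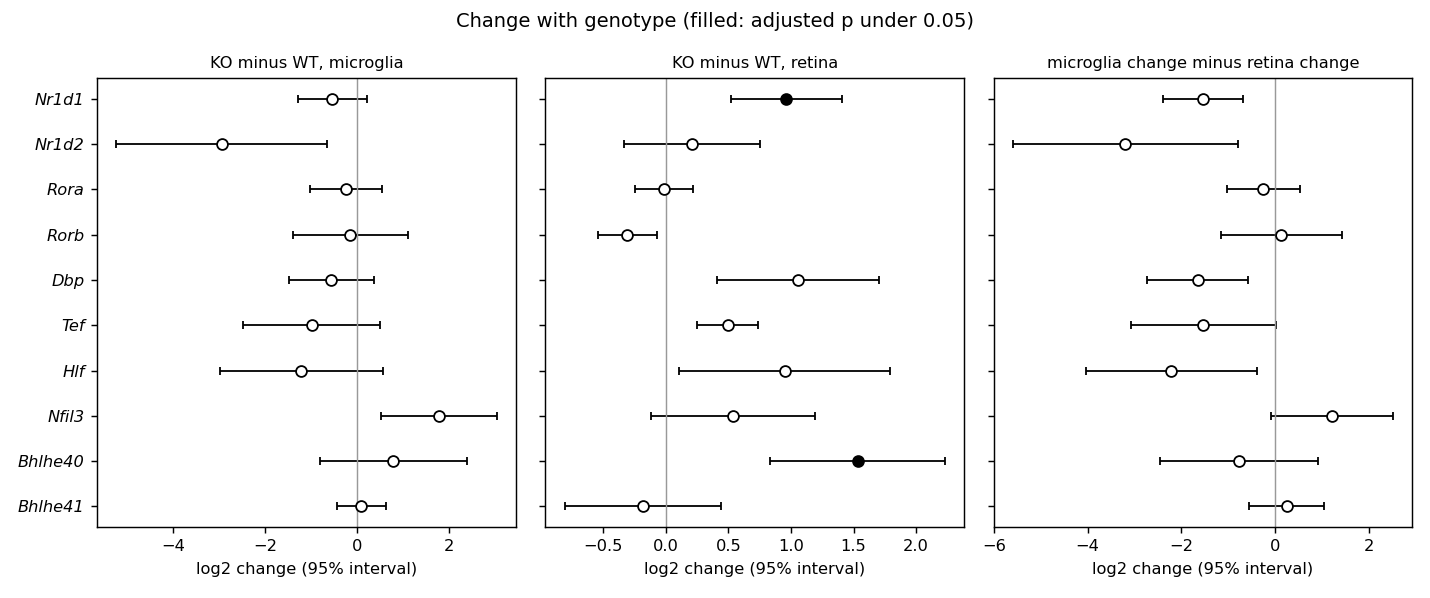
Log2 change of each gene with its 95% interval (x axis, a scale of its own in each panel) for knockout minus control microglia, knockout minus control retina, and the microglia change minus the retina change, with filled points at an adjusted p under 0.05. Only Nr1d1 and Bhlhe40 in retina are filled, and the intervals in retina are narrower than in microglia for most genes.

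The difference between the change in microglia and the change in retina was tested as an interaction over all 18 libraries, which called 0.469% of 18128 genes and none of the 10 by edgeR. The point estimate was negative for 7 of them, and 4 had an unadjusted p under 0.05, against 12.5% of all tested genes, whose median was -0.13. It was -1.54 ± 0.40 for Nr1d1 (adjusted p = 0.106), -3.19 ± 1.14 for Nr1d2 (adjusted p = 0.245), -1.65 ± 0.51 for Dbp (adjusted p = 0.170) and -2.21 ± 0.86 for Hlf (adjusted p = 0.285). For Tef it was -1.53 ± 0.73 (adjusted p = 0.410), for Nfil3 1.22 ± 0.62 (adjusted p = 0.441) and for Bhlhe40 -0.77 ± 0.80 (adjusted p = 0.827), by edgeR. DESeq2 called Nr1d1 (adjusted p = 0.00957) and Dbp (adjusted p = 0.0333), and limma voom called 0 of the 10. Leaving out 1 knockout microglia library brought a call for 3 genes, by edgeR. These were Nr1d1 without replicate 1 (log2 difference -1.79, adjusted p = 0.0436), Tef without replicate 2 (-1.23, adjusted p = 0.0358) and Nr1d2 without replicate 3 (-2.88, adjusted p = 0.0160).

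Between the fractions, microglia had less of most of these genes than retina, and more Bhlhe41. In controls, 6 of the 10 were called lower and 1 higher in microglia, and 40.2% of 15188 genes were called in either direction (17.4% lower, 22.8% higher). In knockouts, 7 were called lower and 1 higher, against 44.9% of 15211 genes (21.2% lower, 23.7% higher). The libraries of the fractions did not overlap for 5 of the 10 genes on the lower and 1 on the higher side in controls, against 20.7% and 28.8% of all genes, and for 7 and 1 in knockouts, against 22.4% and 22.9%. The fractions hold different cell types, and a call between them was common among all genes.

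The ROR genes were farthest below retina in control microglia, at 9.63% of the retina mean for Rora and 8.07% for Rorb, and at 8.07% and 8.85% in knockouts. Their log2 differences in controls were -3.42 ± 0.29 for Rora (adjusted p = 5.21e-05) and -3.67 ± 0.26 for Rorb (adjusted p = 2.00e-05), by edgeR. The 12 rod markers, which microglia are not known to express, summed in microglia to 6.65% of their retina level in knockouts and to 4.95% in controls. In knockout microglia, Nr1d1 (6.48%) and Hlf (4.02%) lay below this rod share and Nr1d2 (8.21%) close above it. Bipolar cell markers had median sums of 204.7 CPM in knockout and 143.9 CPM in control microglia, against 2202 and 635.5 CPM in retina. Cone markers had 229 and 145.5 CPM, against 4319 and 1358 CPM in retina. Amacrine cell markers had 16.9 and 25.8 CPM, against 256.8 and 156.4 CPM in retina. The rod share is therefore not the share of every retinal cell type. The part of retinal RNA in the microglia levels of these genes was not tested.

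Of the REV-ERB genes, Nr1d1 in microglia was at 6.48% of its retina mean in knockouts and at 18.9% in controls, with log2 differences of -4.03 ± 0.34 and -2.45 ± 0.23, both called. Nr1d2 was at 8.21% in knockouts (log2 difference -3.68 ± 1.01, adjusted p = 0.0132) and at 75.2% in controls (-0.45 ± 0.31, adjusted p = 0.289), by edgeR. The 2 comparisons of fractions share no library, and the test of their difference is the interaction given above, which Nr1d1 and Nr1d2 did not pass.

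Among the PAR bZIP genes, Dbp was at 12.7% of its retina mean in knockout microglia and at 39.9% in control microglia, with log2 differences of -3.06 ± 0.27 and -1.36 ± 0.46. Tef was at 25.4% in knockouts (log2 difference -2.05 ± 0.62, adjusted p = 0.0212) and at 73.2% in controls (-0.49 ± 0.18, adjusted p = 0.0565). Hlf was at 4.02% in knockouts and at 18.6% in controls, with log2 differences of -4.71 ± 0.72 and -2.46 ± 0.50, both called by edgeR. Their antagonist Nfil3 was at 100.3% of its retina mean in knockout microglia (-0.07 ± 0.45, adjusted p = 0.910) and at 43.1% in control microglia (-1.26 ± 0.43, adjusted p = 0.0477).

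Bhlhe41 was the 1 gene of the 10 with more in microglia, at 219% of its retina mean in knockouts (log2 difference 1.06 ± 0.25, adjusted p = 0.00617) and at 185% in controls (0.85 ± 0.29, adjusted p = 0.0494), by edgeR. All microglia libraries lay above all retina libraries in both genotypes. Of its exon bases, 19.0% overlap the predicted gene Gm43909 on the opposite strand, and Gm43909 averaged 0.689 CPM in knockout microglia, 0.521 in control microglia, 0.221 in knockout retina and 0.0910 in control retina. Bhlhe40 was at 40.9% in knockouts (-1.37 ± 0.58, adjusted p = 0.0775) and at 69.7% in controls (-0.56 ± 0.50, adjusted p = 0.405). The knockout difference was called by DESeq2 (-1.42, adjusted p = 0.0347), by limma voom (-1.91, adjusted p = 0.00616) and, by edgeR, without knockout microglia replicate 2 (-2.14, adjusted p = 0.00151).

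In controls, 3 of the calls between fractions lay close to the threshold. When 1 library was left out, Dbp (adjusted p = 0.0442 over all libraries) passed in 2 of 8 fits, Nfil3 (adjusted p = 0.0477) in 1 and Bhlhe41 (adjusted p = 0.0494) in 2, with adjusted p-values up to 0.114, 0.103 and 0.111 and directions kept. Nr1d1, Rora, Rorb and Hlf passed in all 8 fits.

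**Figure D3:**
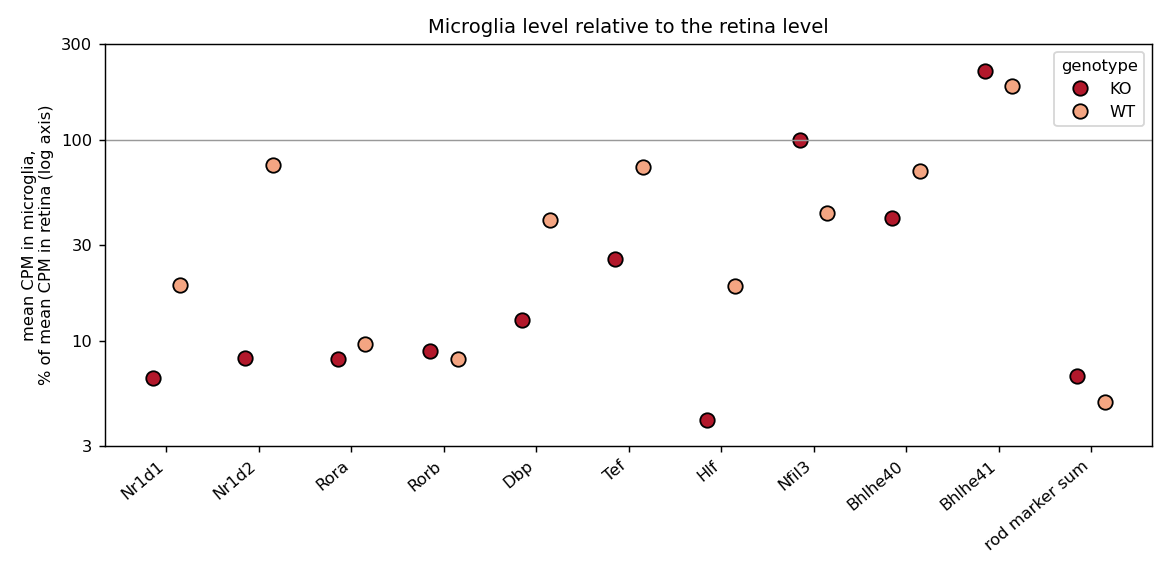
Mean CPM in microglia as a percentage of the mean CPM in retina (log axis) for each gene and for the sum of 12 rod markers, in knockouts and controls, with a line at equal levels. Bhlhe41 lies above the line in both genotypes, Nfil3 lies at 100.3% in knockouts, and Rora and Rorb lie below 10% in both.

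Per kilobase of exon, on CPM, the family had another order of levels in each fraction. In control retina Nr1d1 (74.2 ± 14.7 CPM per kb) and Rorb (60.1 ± 7.76) were highest, within their spread of each other, and then Rora at 27.7 ± 2.97 (SD). Dbp (18.7 ± 8.46), Tef (17.9 ± 2.12) and Nr1d2 (15.3 ± 5.23) followed at levels within their spread, and then Hlf (6.43 ± 3.87), Nfil3 (6.12 ± 1.03), Bhlhe41 (4.59 ± 1.58) and Bhlhe40 (3.32 ± 1.24), of which neighbours were within their spread too. In control microglia Nr1d1 (14.0 ± 3.19), Tef (13.1 ± 2.40) and Nr1d2 (11.5 ± 3.14) led within their spread of each other, ahead of Bhlhe41 (8.51 ± 1.62) and Dbp (7.45 ± 3.17). In knockout microglia Nr1d1 (9.67 ± 4.17), Nfil3 (9.18 ± 5.89) and Bhlhe41 (9.12 ± 2.64) were highest, within their spread of each other, and Nr1d2 (1.49 ± 1.17) stood second to last, above Hlf (0.516 ± 0.415). The length used is that of all annotated exons of a gene, which can exceed that of the transcript in these cells.

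In knockout microglia the coefficient of variation was between 28.9% (Bhlhe41) and 102.5% (Bhlhe40) for the 10 genes. In knockout retina it was between 6.07% (Rorb) and 28.9% (Nfil3), in control microglia between 18.4% (Tef) and 45.5% (Bhlhe40), and in control retina between 10.7% (Rora) and 60.1% (Hlf). Dbp was next to Hlf in control retina, at 45.3%, and control replicate 2 was the lowest library for both.

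Other genes of the clock pathway were taken from lists named with earlier results of these data known. Of 8 measured genes of the core clock loop, 1 was called in retina and none in microglia. That gene was Cry2, a repressor of BMAL1 and CLOCK, which had 190.7 to 249 CPM in knockout retina and 87.9 to 114 CPM in control retina (log2 change 1.04 ± 0.12, adjusted p = 0.0134, edgeR). In microglia Cry2 had 57.9 to 101 CPM in knockouts and 19.9 to 34.7 CPM in controls, and its log2 change of 1.39 ± 0.24 had an adjusted p of 0.0872 by edgeR and 1.97e-05 by DESeq2. The core clock loop had a median log2 change of -0.17 in microglia and 0.53 in retina, on the scale on which the 10 genes had -0.39 and 0.52.

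Of the 2 lists of genes on which REV-ERB, ROR and PAR bZIP factors act, 0 genes were called in either fraction by edgeR. Of the PAR bZIP target genes, 1 in microglia and 2 in retina had an unadjusted p under 0.05, and none with REV-ERB and ROR response elements did. Of the genes with REV-ERB and ROR response elements, 5 were measured in microglia and 4 in retina, with median log2 changes of -0.00 and -0.02. Among them, the log2 change of Cry1 was -0.00 ± 0.63 in microglia and, in retina, -0.20 ± 0.17. Of the PAR bZIP target genes, 6 were measured in each fraction, with a median of -0.31 in microglia and 0.53 in retina, where all 6 were positive, and 3 of them, Per1, Per2 and Per3, are also in the core clock loop. Of the others, Por, the electron donor of cytochrome P450 enzymes, had log2 changes of -0.34 ± 0.12 and 0.19 ± 0.14, and Pdxk, which makes the active form of vitamin B6, had 0.44 ± 0.31 and 1.30 ± 0.49. The 6 genes of the REV-ERB corepressor complex had medians of -0.03 in microglia and -0.05 in retina. The clock kinases and ubiquitin ligases had medians of -0.16 over 7 genes in microglia and 0.12 over 6 in retina, and 6 genes with clock phases in many tissues had -0.05 and 0.30.

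Within groups, some of the 10 genes varied together from library to library. After the mean of each group was subtracted on log2(CPM + 1), Pearson's r over the 9 microglia libraries was 0.82 between Nr1d1 and Nr1d2, 0.83 between Nr1d2 and Rora, 0.82 between Rora and Dbp, and 0.83 between Nfil3 and Bhlhe41 (Spearman's rho 0.85, 0.75, 0.88 and 0.70). With the 2 libraries farthest from the median of the first gene left out, these were 0.76, 0.61, 0.71 and 0.58. In retina, r was 0.65 between Dbp and Hlf and 0.70 between Tef and Hlf (rho 0.80 and 0.72), and 0.64 and 0.57 without the 2 farthest libraries. Between Dbp and Tef it was 0.81 (rho 0.63) and 0.21 without the 2 farthest, so it rested on those libraries. Rora and Dbp had opposite deviations in retina (r = -0.81, rho = -0.83, and -0.71 without the 2 farthest). The median over the 45 pairs was 0.19 in microglia and 0.07 in retina, and the microglia pairs named had the highest r there. Several pairs changed sign in the other fraction. In retina, r was -0.41 for Nr1d1 and Nr1d2 and -0.23 for Nr1d2 and Rora. In microglia, r was -0.53 for Dbp and Tef and -0.15 for Dbp and Hlf. The sign was kept by Nfil3 and Bhlhe41 in retina (0.35) and by Tef and Hlf in microglia (0.64). The 9 values of a pair share library, depth and amplification, and these correlations are given as a description without a test.

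**Figure D4:**
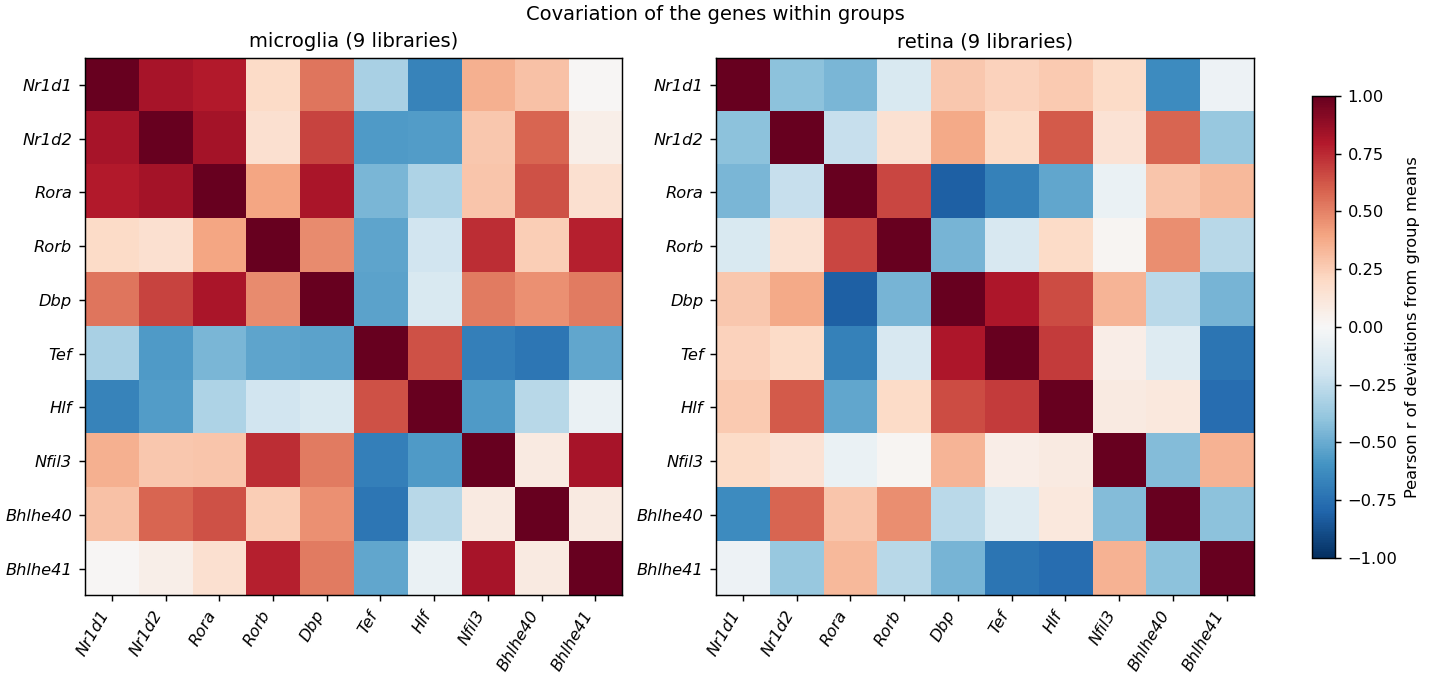
Pearson's r between the 10 genes over the 9 microglia libraries and the 9 retina libraries (colour scale from -1 to 1), after the mean of each group was subtracted on log2(CPM + 1). The REV-ERB genes, Rora and Dbp are positively related in microglia, as are Nfil3, Rorb and Bhlhe41, and Dbp, Tef and Hlf are in retina. Without the 2 libraries farthest from the median of the first gene, r in microglia was 0.08 for Rorb and Nfil3 and 0.42 for Rorb and Bhlhe41. In retina it was 0.21 for Dbp and Tef, and the other pairs within these sets kept at least 0.57.

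For 5 of the 10 genes, the 3 other genes with the highest such r were looked up in each fraction, among the genes that averaged 10 CPM or more, 8476 in microglia and 8303 in retina. In microglia these were Alpl, Gstp1 and Scarb1 for Nr1d1 (r = 0.98, 0.97 and 0.93), Galnt11, Rrp9 and Pars2 for Nr1d2 (0.98, 0.96 and 0.96), and Commd7, Srsf3 and Sirt4 for Dbp (0.98, 0.96 and 0.95). They were Nt5m, Dedd2 and Sbno1 for Tef, and Arih2, Cds2 and Ist1 for Bhlhe41. In retina they were Tbl1x, Agap1 and Mbp for Nr1d1 (0.96, 0.96 and 0.94), Zfp654, Zadh2 and Sdc4 for Nr1d2, and Elovl5, Gm12905 and Drd1 for Dbp (0.98, 0.97 and 0.97). They were Nsg1, Syt4 and Grik1 for Tef, and Mrpl42, Afg1l and Lamtor1 for Bhlhe41. No gene was in the list of the same factor in both fractions. The highest of so many r over 9 libraries is high by selection, and these names describe likeness in these libraries.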

How the data were processed

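RNA was sequenced from 18 libraries of sorted retinal cells, grouped by fraction and genotype as labelled. One table deposited by the authors holds unnormalized read counts per gene, in whole numbers. DRAGEN, STAR 2.7.9a, Subread, featureCounts 2.0.32, edgeR and limma are named in the submitters' processing notes with the build GRCm38, without a role or order. The strandedness of counting is not given in the sources used here. Another 2 deposited tables hold the authors' own comparisons of knockout with control, 1 for each fraction. Per the file headers they give a log2 fold change, a log2 average CPM, a score (the likelihood ratio statistic), a p-value and an FDR.

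Of 55774 lines, 287 repeated the identifier and the counts of another line and were dropped. Of the 55487 genes left, 55141 were found in GENCODE M21 (GRCm38), the source of positions and exon lengths. 0 lines lacked a name, 0 sample columns were unused and 0 pairs of libraries were identical. Tests on counts used edgeR 4.0.16 (R 4.3.3, quasi-likelihood) after filterByExpr and TMM scaling, with Benjamini-Hochberg adjustment over all tested genes, and genes are called at an adjusted p under 0.05. Each comparison used the libraries of its groups and the interaction all 18. A standard error was taken as the size of the log2 change over the square root of its F. CPM are scaled over all 18 libraries. Promoters are from RefSeq.

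The 10 genes, the lists and the alternatives were chosen with earlier results of these data known. Named are the 10 genes, Arntl, any gene of the pathway lists past the threshold, and the 3 genes most alike in each fraction to Nr1d1, Nr1d2, Dbp, Tef and Bhlhe41. Thra, Sphk2, Gm43909, Cry1, Per1, Per2, Per3, Por and Pdxk were named after their values were seen. Alternatives were other size factors, no filter, a filter of 1 CPM in 4 libraries, DESeq2 1.42.0, limma voom 3.58.1, a replicate block, 1 fit over all 18 libraries, 3 covariates and leaving out each library.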

Additional observations from a re-analysis of the deposited data

Results flagged for a closer look

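Bhlhe40 had 52.7 CPM in replicate 2 of knockout microglia, and the other 4 libraries of that group had 4.90 to 16.9 CPM. The gap to the next library is wider than Dixon's 95% limit for 5 values. Of 44 groups of values checked in this way 1 was beyond its limit, and chance alone puts about 1 in 20 there. The same library had 2.74 CPM of Tef, 2.10 CPM of Arntl and 103 CPM of Rorb. What sets it apart was not tested.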

How the results depend on the processing

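Over all comparisons, 984 of 1104 recomputed log2 values of the 10 genes, Arntl and Cry2 kept their direction and their side of the threshold, and 41 changed sign. Of genes called in microglia (17), no filter gave 8, DESeq2 237, limma voom 26, the fit over all 18 libraries 32, either the number of detected genes or the microglia marker level as a covariate 5, and leaving out a library 4 to 21, with 0 of the 10 genes called in each. Of genes called in retina (255, with 2 of the 10), no filter gave 120 (0 of the 10), DESeq2 1184 (4), the fit over all 18 libraries 0 of the 10, the number of detected genes as a covariate 2 (0), the rod marker level 0 (0), and leaving out a library 96 to 342 (0 to 2). Of genes called in the interaction (85, with 0 of the 10), DESeq2 gave 1090 (2), limma voom 145 and leaving out a library 51 to 143 (0 to 1). Between fractions, no filter called 4 of the 10 in controls in place of 7, and leaving out a library 4 to 7 there (5328 to 5854 genes, against 6100) and 8 to 9 in knockouts (6317 to 7507 genes, against 6825).

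With the replicate number as a block, 2 genes were called in microglia, 0 in retina (0 of the 10; adjusted p = 0.135 for Nr1d1 and 0.160 for Bhlhe40) and 9 in the interaction. Between fractions it called 5 of the 10 in controls, without Dbp (adjusted p = 0.0803) and Nfil3 (0.124), and 9 in knockouts, with Bhlhe40 (0.0378), by edgeR. Same-numbered libraries of the genotypes had correlations of deviations of -0.111 to 0.0135 in microglia and 0.0068 to 0.0883 in retina, and those of the fractions -0.0344 to 0.0559. Such correlations cannot show whether libraries come from the same mouse. The labels do not say it, and the numbers were not taken as pairs. If same-numbered fractions do share a mouse, the main tests between fractions and of the interaction leave out that pairing. Per the design text, the sort collected the 2 fractions together, but Xist had 42.0 CPM in control microglia replicate 1 and 0.0766 CPM in control retina replicate 1. In knockouts, Xist was present in replicate 1 of both fractions, at 40.3 CPM in microglia and 12.6 CPM in retina. The other knockout libraries had at most 0.0477 CPM. The block without replicate 1 of both control fractions, chosen after seeing the data, called 3 genes in the interaction and, between control fractions, 2457 genes with 4 of the 10.

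Some values changed sign. In microglia, the covariate for detected genes gave 0.11 for Nr1d1, 0.16 for Rora, 0.28 for Rorb and -0.0056 for Bhlhe41, and the microglia marker level 0.22 for Rorb. In retina, Rora was at 0.0117 with the size factors of DESeq2, 0.0118 with DESeq2, 0.0241 in the fit over all 18 libraries, 0.23 with the covariate for detected genes and 0.43 with the rod marker level. The covariate for detected genes also gave -0.19 for Nr1d2 and Hlf and 0.50 for Bhlhe41, and the rod marker level -0.0513 for Nr1d2, -0.0700 for Dbp, -0.42 for Hlf, 0.57 for Bhlhe41 and 0.41 for Arntl. In the interaction, Rorb was at -0.11 with limma voom, -0.18 with the block and -0.36 with the block without control replicate 1. Leaving out a library gave ranges across 0 for Rorb (-0.60 to 0.13), Bhlhe40 (-0.0484 to 1.04) and Bhlhe41 (-0.0466 to 0.20) in microglia, Rora (-0.0636 to 0.0403) and Bhlhe41 (-0.33 to 0.0161) in retina, Rorb (-0.34 to 0.41) and Arntl (-0.43 to 0.14) in the interaction, and Nfil3 (-0.41 to 0.18) between knockout fractions. The number of detected genes separates the genotypes in microglia and also in retina (18761 to 19713 in knockouts, 16510 to 18715 in controls). Fits with that covariate therefore cannot tell it apart from genotype. The cause of these differences was not tested. Depth, at which 3 counts are 0.0631 to 0.0929 CPM before TMM scaling, bounds only the counting error of Nr1d2 in the knockout microglia library at 0. That library had 41816381 counts, and why it had no read of Nr1d2 was not tested. The 4 or 5 libraries of a group limit all of these values.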
